A study of Mus musculus with 13 samples.

Results

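Hmga2 and its paralog Hmga1, the antisense row 1700006J14Rik that lies across the end of Hmga2, the 3 Igf2bp genes and Lin28b are described here across normal brain and 2 kinds of mouse glioblastoma. They are 7 of the 55416 gene rows of the count table. They were picked by symbol, matched through Ensembl identifiers to GENCODE M21, and they were picked with results of the same comparisons already known. Their levels and differences between groups are therefore given as a description, with no p-value. Of the 7 rows, 5 passed the low-count filter of the fit, and Igf2bp1 and Lin28b did not.

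The tumors arose after a lentivirus was placed in the motor cortex of mice of the CNP-Cre line, in which the promoter of Cnp, a gene of oligodendrocytes, drives Cre. The PDGFB tumors (n = 5, genotype label PDGFB-shP53) received a vector with the growth factor PDGFB, and the RAS tumors (n = 5, HrasV12-shp53) one with the oncogene HRasV12. A short hairpin RNA against p53 was shared by both vectors, so no tumor group differs from the other in that element, and no group carries the hairpin alone. Each tumor group comprised GFP-positive tissue of 5 mice that had reached their clinical endpoint. Normal brain (n = 3) has the genotype label WT. The protocol speaks of normal tissue cut away from the tumors, and the labels do not say whether these 3 samples are that tissue or come from other mice, so whether they hold Cre or virus is not known from the labels. Normal brain 3 is titled MBT where the other 2 are titled NBT, and it was grouped by its tissue label. The titles also hold a letter, M for normal brain 1 and F for normal brain 2 and 3, whose meaning is not given. No age is given for any group. The normal brain labels state neither a region nor whether the 3 samples are 3 animals. Calls given below rest on the spread between these 13 samples.

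HMGA2 and HMGA1 are small architectural chromatin proteins that bind AT-rich DNA through AT hooks; HMGA2 is abundant in the embryo, is largely silent in adult tissue and returns in many tumors. The IGF2BP proteins bind messages, many of them carrying the m6A mark, and govern their stability and transport; IGF2BP1 and IGF2BP3 are typical of fetal tissue, while IGF2BP2 persists more widely in adults. LIN28B blocks the maturation of let-7 microRNAs. These microRNAs in turn repress HMGA2, LIN28B and the IGF2BPs through sites in their 3′ untranslated regions, which ties the genes into a single oncofetal circuit.

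The link between these genes is a 7-base word. The let-7 family is shown first because its seed, bases 2 to 8 in capitals, is the part that pairs with the target. RefSeq (GRCm38.p6) holds 11 mature names of the family in mouse, and 10 of them share the seed GAGGUAG, among them the 3 printed here.
mmu-let-7a-5p: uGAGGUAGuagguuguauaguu
mmu-let-7i-5p: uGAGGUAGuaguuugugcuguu
mmu-miR-98-5p: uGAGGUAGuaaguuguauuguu
The remaining name, mmu-let-7j, has the seed GAGGUAU. The message word that pairs with the shared seed is CTACCTC.

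Hmga2 held 4 copies of CTACCTC in its longest 3′ untranslated region of 3014 bases (GENCODE M21 transcripts). They are printed below 5′ to 3′ on the transcript with the seed match in capitals, together with the single site of Hmga1, Igf2bp2 and Igf2bp3 and the first of 4 sites of Igf2bp1 and of Lin28b. Positions count from the first base after the stop codon.
Hmga2 site 1 (58 to 64): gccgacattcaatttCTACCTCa
Hmga2 site 2 (1295 to 1301): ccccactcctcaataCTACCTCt
Hmga2 site 3 (1733 to 1739): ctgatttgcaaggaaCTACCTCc
Hmga2 site 4 (2591 to 2597): aatcaaaacacactaCTACCTCt
Hmga1 site (801 to 807): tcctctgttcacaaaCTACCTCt
Igf2bp1 site 1 (1715 to 1721): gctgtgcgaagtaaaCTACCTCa
Igf2bp2 site (1313 to 1319): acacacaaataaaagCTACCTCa
Igf2bp3 site (548 to 554): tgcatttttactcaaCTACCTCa
Lin28b site 1 (36 to 42): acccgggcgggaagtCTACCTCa
An A after the match, the form that seed pairing favours, followed site 1 of Hmga2 and the printed sites of Igf2bp1, Igf2bp2, Igf2bp3 and Lin28b.

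Among longest 3′ untranslated regions of all 21124 protein-coding genes, 10.1% held the word at least once. Length matters for such a count, so each gene was set beside the other genes whose region was at least as long, read over the same number of bases from the stop codon. Over the length of Hmga2, 18.2% of 3126 genes held a site and 0.0320% held 4 or more. Over the length of Igf2bp1 (6337 bases), 36.3% of 405 genes held a site and none held 4. For Lin28b (4445 bases) the shares were 24.6% and 0.168% of 1190 genes. Single sites as in Hmga1, Igf2bp2 and Igf2bp3 were held by 8.01%, 11.5% and 13.4% of genes over those lengths. A match of letters is a description and not a measured site. The microRNAs themselves could not be followed here: all 12 let-7 precursor rows (Mir98 included) had 0 reads in the 13 libraries of polyadenylated RNA.

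The promoters of the HMGA genes are shown because both genes were higher in the tumors. Each is the RefSeq window (GRCm38.p6) from 250 bases before to 50 after the annotated start, in the direction of the gene, with GC boxes (GGGCGG on either strand) in capitals.
Hmga2, chr10:120476420-120476719, minus strand: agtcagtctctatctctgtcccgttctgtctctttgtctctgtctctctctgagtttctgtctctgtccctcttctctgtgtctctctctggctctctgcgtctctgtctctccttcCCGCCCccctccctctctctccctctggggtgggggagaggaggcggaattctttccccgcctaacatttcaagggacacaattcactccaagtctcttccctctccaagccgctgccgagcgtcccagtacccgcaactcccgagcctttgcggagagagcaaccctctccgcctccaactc
Hmga1, chr17:27556324-27556623, plus strand: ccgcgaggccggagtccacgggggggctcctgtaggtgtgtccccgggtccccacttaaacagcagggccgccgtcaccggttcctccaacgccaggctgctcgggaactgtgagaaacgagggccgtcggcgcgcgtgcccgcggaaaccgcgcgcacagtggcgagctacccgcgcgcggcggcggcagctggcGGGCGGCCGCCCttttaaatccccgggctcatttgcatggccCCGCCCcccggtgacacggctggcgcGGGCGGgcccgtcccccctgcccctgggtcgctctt
Hmga2 held 1 GC box, starting at position -133, in a stretch of CT repeats, and Hmga1 held 4, of which 2 abut. Igf2bp2 held 2, and Igf2bp3 and Lin28b none. A GC box was present in 35.7% of 32851 promoter windows. Igf2bp3 held 1 CCAAT box and 2 E-boxes (CACGTG), and Lin28b 1 of each. These words occur in 37.4% and 7.15% of windows. None of the 5 promoters held TATAAA (13.6% of windows) or the AP-1 word TGANTCA (7.81%), and these letters were searched on both strands only within the 300 bases. G and C made up 57.7% of the Hmga2 window, 74.0% for Hmga1, 76.7% for Igf2bp2, 60.3% for Igf2bp3 and 39.0% for Lin28b, beside a median of 52.7% over all windows. The Lin28b window (chr10:45470152-45470451, minus strand) lies inside the GENCODE locus, whose 5′ end is at 45486395. Its values are those of another annotated start and not of that end. The Igf2bp1 promoter is not shown.

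Depth sets what the counts can show. Libraries ran from 13952738 to 15607754 reads. Counted for genes were 529162 to 643055 of them (median 608897), while 84.5% to 87.3% fell in no gene. Levels are given as CPM, the reads of a gene scaled to the reads counted for all genes, where 1 read is worth 1.56 to 1.89 CPM. Genes with an exon opposite an exon on the other strand made up 16.7% of annotated genes and took 83.7% of counts, at 14.8 reads per kb and library against 0.964 for the others. The strand setting of the count and whether the kit marked strand are not given in the sources used here. Reads of a gene and of a row that overlaps it on the other strand can therefore not be told apart, and such rows are named beside each gene below. Whether the counts of such a row come from its own gene or from the gene opposite was not tested. Levels and directions below are those of the counted rows. RAS tumor 2 stood apart on the first principal component (55.1% of variance) at -11.3, next to the PDGFB tumors (-10.1 to 13.9), while the other 4 RAS tumors lay at -52.8 to -70.5. Values that rest on it are given with and without it. In pieces of tissue, fewer cells of a type and less RNA per cell cannot be told apart.

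Hmga2 (ENSMUSG00000056758, chr10:120361275-120476469, minus strand) went from no read in normal brain to a low level in PDGFB tumors and a high level in RAS tumors. The 3 normal brain libraries had 0, 0 and 0 reads. PDGFB tumors 1 to 5 had 17, 14, 20, 12 and 12 reads. RAS tumors 1 to 5 had 130, 69, 107, 106 and 171. The 3 groups did not overlap, and even RAS tumor 2, the lowest of its group, lay above every PDGFB tumor. The mean level was 24.4 ± 5.39 CPM (SD, n = 5) in PDGFB tumors and 188 ± 56.3 CPM (SD, n = 5) in RAS tumors. Set against a floor of 3 reads over the normal group (1.74 CPM), Hmga2 was at least 14.02-fold higher in PDGFB tumors and at least 109-fold higher in RAS tumors. RAS tumors exceeded PDGFB tumors by a log2 fold change of 3.09 ± 0.28 (SE, edgeR), which is 8.50-fold. Without RAS tumor 2 the RAS mean was 207 ± 43.3 CPM (n = 4).

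**Figure D1:**
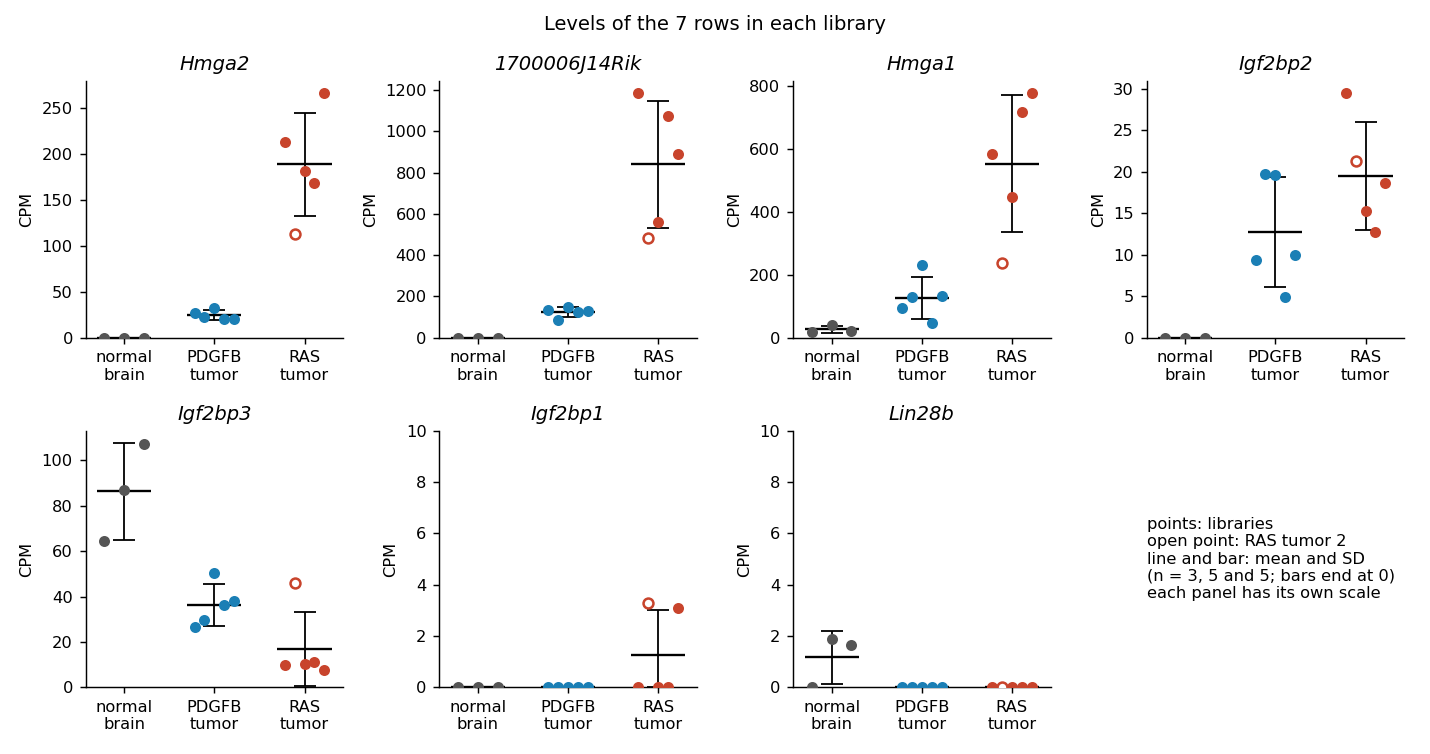
Level of each of the 7 rows in CPM (vertical axis, own scale per panel) in 3 normal brains, 5 PDGFB tumors and 5 RAS tumors; points are libraries, the open point is RAS tumor 2, and line and bar give mean and SD. Hmga2, 1700006J14Rik and Hmga1 stand highest in RAS tumors. The counted Igf2bp3 row stands highest in normal brain, and in it RAS tumor 2 lies at 46.0 CPM, above the other 4 RAS tumors. Whether its reads come from Igf2bp3 or from Malsu1 on the other strand was not tested.

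1700006J14Rik (ENSMUSG00000034764, chr10:120364157-120384336, plus strand, annotated as antisense) showed the same order with more reads. It shares 140 bases with Hmga2, chr10:120364157-120364296, at the inner end of the last Hmga2 exon, which holds its 3′ untranslated region; its other exons lie opposite introns of Hmga2. All 3 normal brain libraries had 0 reads. PDGFB tumors 1 to 5 had 87, 52, 90, 74 and 77 reads, and RAS tumors 1 to 5 had 724, 296, 330, 676 and 574. Again no groups overlapped. The means were 124 ± 23.3 and 840 ± 308 CPM (SD, n = 5 each), at least 71.0-fold and at least 484-fold above the normal floor. The RAS to PDGFB log2 fold change was 2.91 ± 0.27 (SE, edgeR), next to 3.09 for Hmga2.

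**Figure D2:**
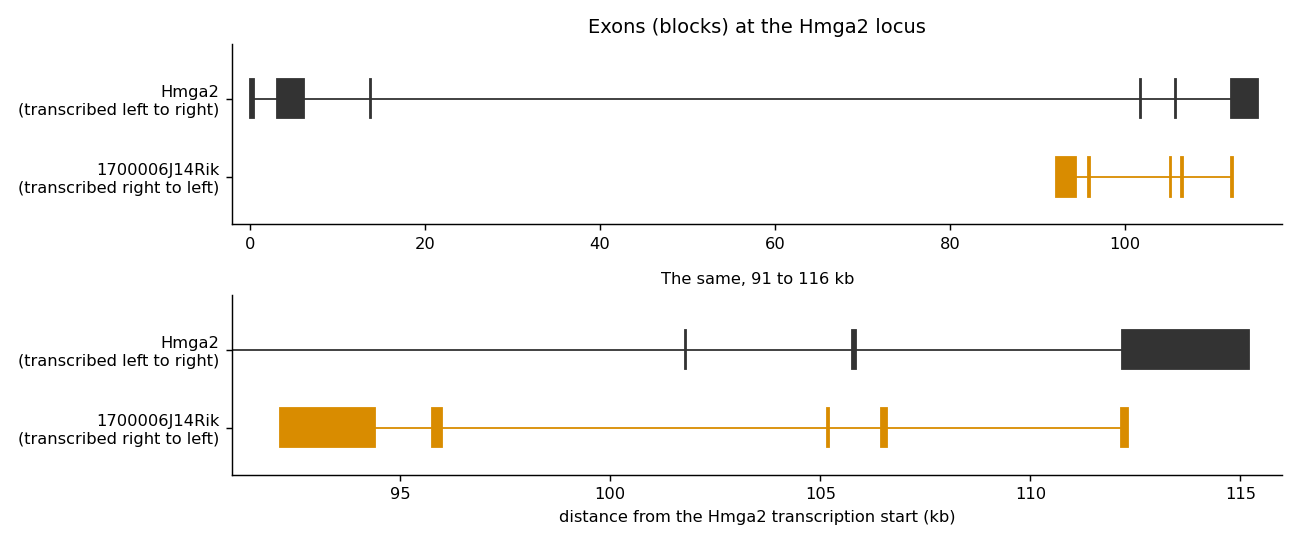
Exons (blocks) and introns (lines) of Hmga2 and 1700006J14Rik by distance from the Hmga2 transcription start in kb, to scale, with the end of the locus enlarged below. The first 1700006J14Rik exon overlaps the last Hmga2 exon, which runs from 112.17 to 115.19 kb, and its longest exon, from 92.13 to 94.40 kb, lies in an Hmga2 intron.

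The split of reads between the 2 rows ran from 75.5% to 86.5% over the 10 tumors. 1700006J14Rik took 83.4% ± 3.18 (SD, n = 5) of the reads of both rows in PDGFB tumors, from 78.8% to 86.5%. In RAS tumors it took 81.0% ± 4.73 (SD, n = 5), from 75.5% to 86.4%. The tumor groups overlapped in this share although the sum of both rows went from 148 ± 26.6 to 1028 ± 341 CPM. PDGFB tumor 2, with 66 reads in both rows, had a share of 78.8% with a Wilson 95% interval of 67.5% to 86.9%, which covers counting error only. RAS tumor 3, with 437 reads, had 75.5% (71.3% to 79.3%). Per kb of exon, 1700006J14Rik reached 291 ± 107 CPM and Hmga2 27.8 ± 8.32 CPM in RAS tumors. With both rows summed before the fit, the RAS to PDGFB log2 fold change was 2.94. Another row, 9230105E05Rik, lies opposite an Hmga2 intron and had 3 reads in all, in RAS tumors.

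Hmga1 (ENSMUSG00000046711, chr17:27556497-27563674, plus strand), the more widely expressed member of the family, was present in every library and rose stepwise across the 3 groups. Normal brain had 11, 21 and 13 reads, or 26.6 ± 11.4 CPM (SD, n = 3). PDGFB tumors 1 to 5 had 61, 79, 141, 28 and 81 reads, or 127 ± 67.4 CPM (SD, n = 5). RAS tumors 1 to 5 had 357, 145, 263, 451 and 500 reads, or 553 ± 217 CPM (SD, n = 5). No groups overlapped in CPM, though PDGFB tumor 3 (230.0 CPM) and RAS tumor 2 (238 CPM) were close. The log2 fold changes were 2.03 ± 0.51 for PDGFB tumors and 4.30 ± 0.54 for RAS tumors against normal brain, and 2.27 ± 0.37 for RAS against PDGFB tumors (SE, edgeR). Without RAS tumor 2 the RAS mean was 631 ± 147 CPM.

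At the 3′ end of Hmga1, 102 bases of its exon lie opposite AI413582, and 22 bases at its start lie opposite Gm49774. AI413582 had 4, 2 and 2 reads in normal brain. It had 8, 9, 29, 6 and 16 in PDGFB tumors and 66, 54, 55, 76 and 82 in RAS tumors. Its means were 4.63 ± 1.90, 22.2 ± 15.4 and 108 ± 16.8 CPM, and its RAS to PDGFB log2 fold change was 2.41 ± 0.35 (SE, edgeR). It took 16.2% ± 9.33 of the reads of both rows in normal brain, 14.6% ± 3.43 in PDGFB tumors and 17.7% ± 5.42 in RAS tumors, shares that overlapped. In RAS tumor 2 the share was 27.1%, above the 14.1% to 17.3% of the other 4. Gm49774 had 1, 6 and 28 reads over the 3 groups and was not tested.

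**Figure D3:**
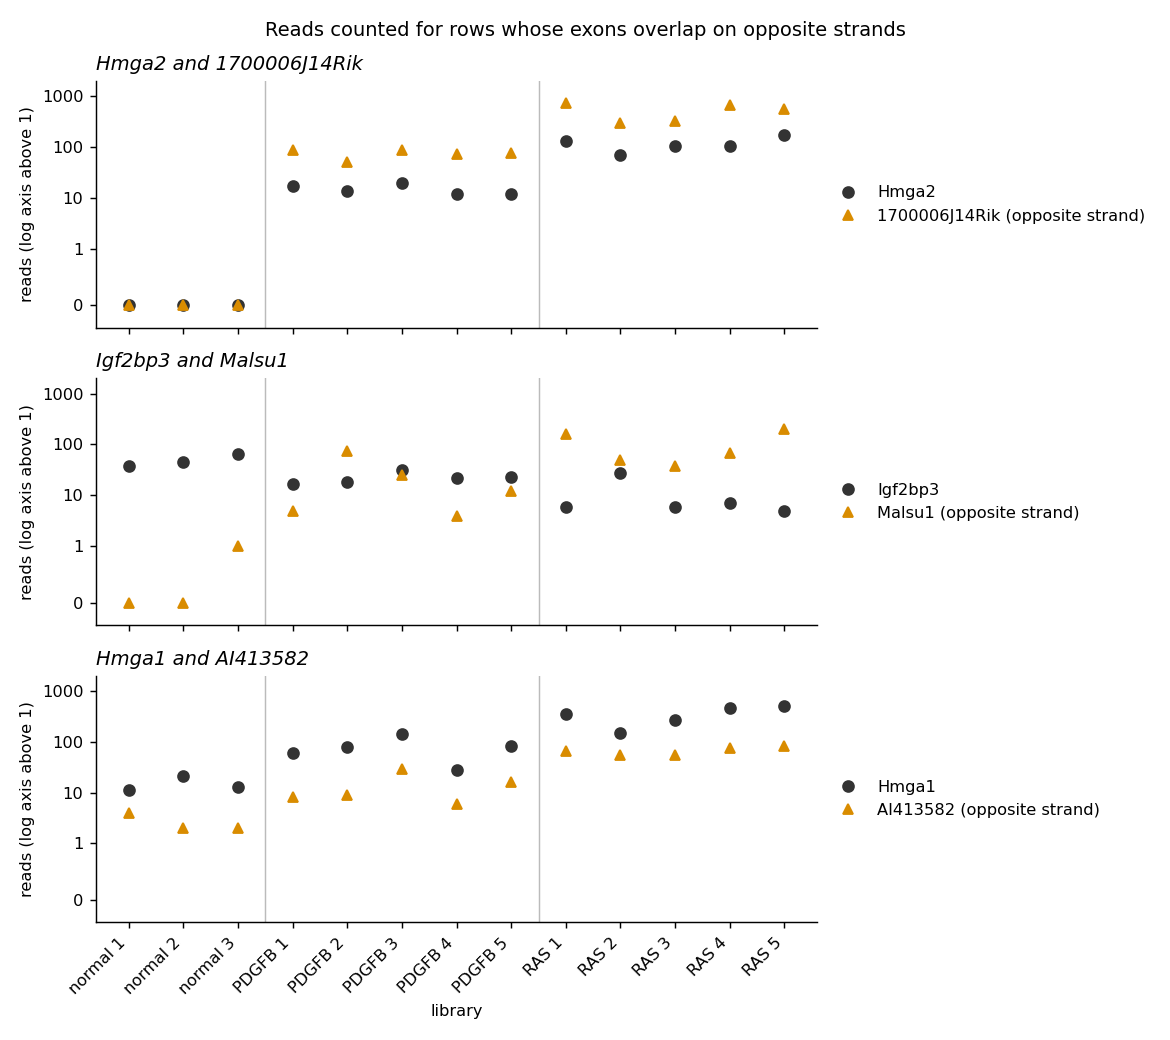
Reads in each of the 13 libraries (vertical axis, log scale above 1) for 3 genes (circles) and the row on the opposite strand (triangles). For Hmga2 and Hmga1 both rows rise together from normal brain to RAS tumors. The counted Igf2bp3 row falls as the Malsu1 row goes from 1 read in normal brain to 514 reads in RAS tumors.

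Igf2bp2 (ENSMUSG00000033581, chr16:22059009-22163299, minus strand) is the member of the IGF2BP family that adult tissues keep most widely, and it was found in every tumor and in no normal brain library. PDGFB tumors 1 to 5 had 6, 12, 12, 3 and 6 reads, and RAS tumors 1 to 5 had 18, 13, 9, 8 and 12. Normal brain had 0, 0 and 0. The means were 12.7 ± 6.61 CPM in PDGFB tumors and 19.5 ± 6.46 CPM in RAS tumors (SD, n = 5 each), at least 7.29-fold and at least 11.2-fold above the normal floor. The tumor groups overlapped, and their log2 difference of 0.74 ± 0.41 (SE, edgeR) did not pass the threshold. No exon lies opposite Igf2bp2. Genes of that kind held 0.964 reads per kb and library against 14.8 for the others, so 0 reads in normal brain do not show that its message was absent.

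Igf2bp3 (ENSMUSG00000029814, chr6:49085223-49214957, minus strand) is a fetal family member that returns in several cancers. Its counted row was lower in both tumor groups than in normal brain. Over 1529 bases the last Igf2bp3 exon lies opposite Malsu1, whose row had 1, 122 and 514 reads over the 3 groups. Which of the genes the reads of either row come from was not tested. Normal brain had 38, 46 and 65 reads, or 86.4 ± 21.4 CPM (SD, n = 3). PDGFB tumors 1 to 5 had 17, 18, 31, 22 and 23 reads, or 36.2 ± 9.28 CPM (SD, n = 5). RAS tumors 1 to 5 had 6, 28, 6, 7 and 5 reads, or 17.0 ± 16.2 CPM (SD, n = 5). Both tumor groups lay below normal brain without overlap, with log2 fold changes of -1.48 ± 0.40 and -2.44 ± 0.42 (SE, edgeR). Without RAS tumor 2 the RAS value was -3.08. RAS and PDGFB tumors overlapped through RAS tumor 2 alone. The log2 difference between RAS and PDGFB tumors was -0.96 ± 0.40 and missed the threshold. Without RAS tumor 2 it was -1.70 and passed, and with no low-count filter it was -1.03 and passed. Neither is a test, since the row was picked with the comparisons known and RAS tumor 2 was seen to stand apart. The other 4 RAS tumors had a mean of 9.73 ± 1.42 CPM, against 46.0 CPM in RAS tumor 2.

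Markers of other cells followed the Igf2bp3 row only in part. The full neuron list did not, and RAS tumor 2 had the lowest neuron sum of the RAS tumors (3691 CPM). Sums without genes that have an exon opposite were added after seeing the data. The neuron list (5 of 5 genes measured) summed to 4999 to 5378 CPM in normal brain, 188 to 517 CPM in PDGFB tumors and 3691 to 8199 CPM in RAS tumors, and most of that sum was Nefm, which lies opposite Nefl. The remaining 4 genes, Snap25, Syt1, Rbfox3 and Camk2a, summed to 1013 to 1091, 34.5 to 172 and 1.64 to 223 CPM. RAS tumor 2 had the 223 CPM, and the other RAS tumors had 1.64 to 31.1 CPM. The astrocyte list (5 of 5) summed to 283 to 419 CPM in normal brain and 154 to 354 CPM in PDGFB tumors. It reached 525 CPM in RAS tumor 2 and 83.2 to 204 CPM in the other RAS tumors. The mature oligodendrocyte list (5 of 5) summed to 1347 to 2013 CPM in normal brain, 758 to 840 CPM in PDGFB tumors, and 826 CPM in RAS tumor 2 against 583 to 746 CPM in the other RAS tumors. Cnp, which has an exon opposite, stood at 584 to 719, 635 to 739 and 504 to 669 CPM in the 3 groups, all overlapping. The other 4 genes stood at 763 to 1294, 73.9 to 157, and 241 CPM in RAS tumor 2 against 72.0 to 86.6 CPM in the rest. None of these markers was at 0 in a whole group. Their part in the level of the counted Igf2bp3 row was not tested.

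The last exon of Igf2bp3 lies opposite Malsu1 (chr6:49073795-49086751, plus strand), a mitochondrial ribosome assembly gene, over 1529 bases (chr6:49085223-49086751). Malsu1 had 0, 0 and 1 read in normal brain. It had 5, 76, 25, 4 and 12 reads in PDGFB tumors and 161, 50, 37, 67 and 199 in RAS tumors. The ratio of counts to normal brain was 68.4 (95% counting interval 12.1 to 2725) for PDGFB and 287 (51.3 to 11366) for RAS tumors. The tumor groups overlapped through PDGFB tumor 2, and their log2 fold change was 2.20 ± 0.61 (SE, edgeR). As a share of the reads of both rows, Malsu1 held 0.505% ± 0.875 in normal brain, 39.6% ± 25.6 in PDGFB tumors and 86.9% ± 13.6 in RAS tumors. The share ran from 15.4% to 80.9% in PDGFB tumors and from 64.1% to 97.5% in RAS tumors, so these groups overlapped. Which of the genes the reads of either row come from was not tested, so the direction given for Igf2bp3 is that of the counted row.

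Igf2bp1 (ENSMUSG00000013415, chr11:95957163-96005940, minus strand) and Lin28b (ENSMUSG00000063804, chr10:45376620-45486395, minus strand) were at or near 0 throughout. Igf2bp1, the fetal founding member of its family, had 2 reads in RAS tumor 2, 2 in RAS tumor 5 and none in the other 11 libraries. Gm29202, which overlaps its first exon by 43 bases, had 5 and 1 reads in the same 2 tumors and none elsewhere. Lin28b, the let-7 blocker, had 1 read in each of normal brain 2 and 3 and none in the 10 tumors. Counts of 0 leave room for up to 0.977 CPM in the PDGFB group and 0.974 CPM in the RAS group (3 reads over the group). This floor covers sampling only. Lin28b has no exon opposite, and genes of that kind held 0.964 reads per kb and library against 14.8 for the others. A count of 0 therefore does not show that its message was absent. Neither gene was tested, and no fold is given for either.

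In the tests over 7722 genes, PDGFB tumors against normal brain called 4 of the 5 tested rows higher (Hmga2, 1700006J14Rik, Hmga1 and Igf2bp2) and 1 lower (Igf2bp3). Igf2bp2 passed the low-count filter through 2 PDGFB and 3 RAS libraries and would not pass it with the PDGFB and normal libraries alone. Hmga2 and 1700006J14Rik passed through the tumors alone. Over all genes 45.3% were called, 20.2% higher and 25.1% lower. RAS tumors against normal brain called the same 4 rows higher and Igf2bp3 lower, where 56.2% of all genes were called, 26.9% higher and 29.3% lower. RAS against PDGFB tumors called 3 rows higher (Hmga2, 1700006J14Rik and Hmga1), where 32.1% were called, 17.4% higher and 14.6% lower. None was called lower in it by edgeR or DESeq2, and 1, Igf2bp3, was lower before adjustment of p. The first 2 comparisons share the normal brains. Groups without overlap occurred in 28.2% (higher) and 23.3% (lower) of genes for PDGFB against normal brain, in 25.8% and 26.4% for RAS against normal brain, and in 8.88% and 11.4% for RAS against PDGFB tumors. Nothing is read from these counts of members, since the rows were chosen with the comparisons known.

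**Figure D4:**
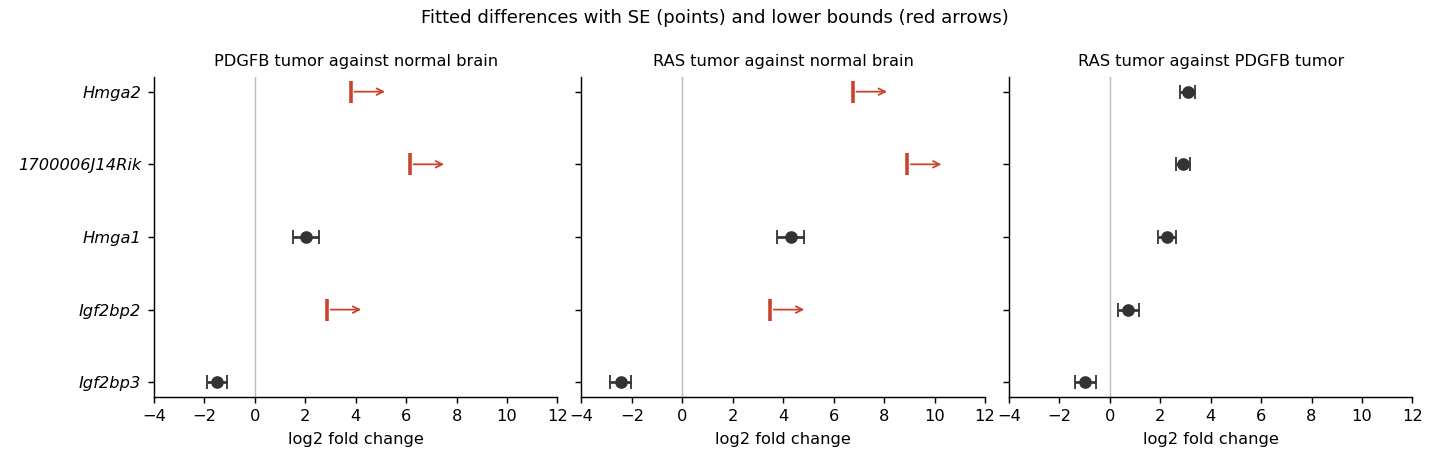
Log2 fold change of the 5 tested rows in the 3 comparisons; points and bars are the edgeR estimate and its SE, and red arrows start at the lower bound where normal brain had 0 reads. The counted Igf2bp3 row lies left of 0 in all 3 panels, at -0.96 for RAS against PDGFB tumors, where Igf2bp2 lies at 0.74.

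Counts of the rows are set side by side per kb of exon here. Genes with an exon opposite held 14.8 reads per kb and library against 0.964 for the others, and Igf2bp2 and Lin28b have no exon opposite. The order is therefore one of counted rows and not of messages. In normal brain Hmga1 (12.5 ± 5.36 CPM per kb) and Igf2bp3 (10.6 ± 2.62) led and did not differ beyond their spread, and the other rows were at or near 0. In PDGFB tumors Hmga1 (59.8 ± 31.7) and 1700006J14Rik (42.9 ± 8.09) led, followed by Igf2bp3 (4.44 ± 1.14), Hmga2 (3.602 ± 0.796) and Igf2bp2 (1.72 ± 0.893). In that order Hmga1 and 1700006J14Rik overlapped and so did Igf2bp3 and Hmga2, and the other neighbours did not. In RAS tumors 1700006J14Rik (291 ± 107) and Hmga1 (260.1 ± 102) overlapped, Hmga2 followed without overlap at 27.8 ± 8.32, and Igf2bp2 (2.63 ± 0.873) and Igf2bp3 (2.08 ± 1.99) overlapped at the bottom.

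Markers of further cell types were measured too, and not all of them followed the HMGA genes. The neural progenitor list (5 of 5) summed to 27.2 to 43.0 CPM in normal brain, with Nes at 0, 521 to 647 CPM in PDGFB tumors and 629 to 1079 CPM in RAS tumors. The macrophage and microglia list (5 of 5) summed to 256 to 269, 217 to 308 and 449 to 625.1 CPM, with normal brain inside the PDGFB range. Csf1r, which lies opposite Hmgxb3, held 235 to 255, 183 to 228 and 247 to 319 CPM of it, and the other 4 genes summed to 11.3 to 21.5, 31.2 to 79.4 and 201 to 320 CPM. Fibroblast genes (5 of 5, Lum at 0 in normal brain) stood at 7.56 to 11.9, 9.41 to 41.3 and 62.9 to 314 CPM. Endothelial genes (5 of 5, Cldn5 and Cd93 at 0 in normal brain) stood at 4.96 to 13.6, 9.92 to 50.6 and 41.0 to 62.2 CPM. Proliferating cell genes (5 of 5, with Tpx2, Cdk1 and Cenpf at 0 in normal brain) stood at 3.78 to 6.61, 93.6 to 268 and 78.8 to 165 CPM, with overlap between the tumor groups. The oligodendrocyte precursor list (5 of 5) stood higher in PDGFB than in RAS tumors, at 46.3 to 60.5, 518 to 751 and 87.1 to 289 CPM. The part of any of these cells in the HMGA levels was not tested.

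Over the 13 libraries the genes whose log2 CPM followed Hmga2 most closely were Cd44 (Pearson r = 0.988), Ap3m1 (opposite Vcl, 0.988), Tpm4 (opposite Gm26586, 0.988), Tmem198b (opposite Mmp19 and Dnajc14, 0.985) and Eme1 (opposite Lrrc59 and Mrpl27, 0.985). For 1700006J14Rik they were Ctu2 (opposite Piezo1, 0.988), Dnajc14 (0.987), Ddx49 (opposite Homer3, 0.985), Tpm4 (0.985) and Msn (opposite Gm24718, 0.983). Hmga2 and 1700006J14Rik themselves stood at r = 0.978, Hmga2 and Hmga1 at 0.956, Hmga2 and Igf2bp2 at 0.887, and Hmga2 and Igf2bp3 at -0.897. These 13 points form 3 groups and share library totals, so the values describe likeness of the group pattern. Cd44, a hyaluronan receptor whose message IGF2BPs bind and the only one of the 9 with no exon opposite, had 0 reads in normal brain. It stood at 11.02 ± 4.31 CPM in PDGFB tumors and 70.2 ± 18.9 CPM in RAS tumors (SD, n = 5 each).

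Counts for the lists below stand beside the shares of all genes called higher and lower. These shares were 20.2% and 25.1% for PDGFB and 26.9% and 29.3% for RAS tumors against normal brain. Between the tumors they were 17.4% and 14.6%. The lists were chosen with earlier results of these data known, so calls of single genes are a description as well. No list count is read as a result about the list. Of 19 genes for LIN28 and let-7 processing, 10 were tested. Against normal brain, 1 was called in each tumor group, Hnrnpa1, a splicing factor that binds let-7 precursors, with log2 fold changes of 1.88 ± 0.27 in PDGFB and 1.43 ± 0.27 in RAS tumors. Between the tumors edgeR and DESeq2 each called 0 of the 10, with 1 higher and 1 lower at an unadjusted p under 0.05 in edgeR; with library totals Hnrnpa1 was called lower in RAS tumors (-0.59). The medians of the 10 were 0.14, 0.40 and -0.03, against medians of -0.00, 0.02 and -0.03 over all genes. Lin28a, the paralog of Lin28b, had 0 reads in all libraries, and Trim71, an embryonic let-7 target, had 13, 48 and 10 reads over the 3 groups; these 2 were picked after their values were seen.

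Other known let-7 targets moved in part. Of 20 genes, 7 were tested. In PDGFB tumors 3 were higher than in normal brain, the cyclins Ccnd1 (opposite LTO1) and Ccnd2 (opposite Gm43126 and 9330179D12Rik) and the transcription factor Myc, and Hras, the mouse gene of the oncogene in the RAS vector, was lower (log2 fold change -1.15 ± 0.40), a call lost with library totals in place of TMM scaling (-0.92). Ccnd1 stood at 66.7 ± 2.14, 472 ± 59.7 and 470 ± 51.9 CPM in the 3 groups. In RAS tumors Ccnd1 and Ccnd2 were higher, by log2 fold changes of 2.71 ± 0.20 and 2.09 ± 0.43, and edgeR and DESeq2 called none lower (1 lower at an unadjusted edgeR p under 0.05). Between the tumors both tools called 0 of the 7, with 0 higher and 1 lower at an unadjusted edgeR p under 0.05; with library totals Myc was called lower in RAS tumors (-0.99). List medians were 0.78, 0.59 and -0.02.

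IGF2BP-bound messages numbered 13, of which 6 were tested. Against normal brain 3 were higher and 1 lower in PDGFB tumors, and 2 higher and 1 lower in RAS tumors. Cd44 was at least 6.36-fold and at least 40.4-fold higher. Actb, the message on which this family was first studied as a zipcode binder, stood at 122 ± 21.5, 374 ± 95.5 and 673 ± 172 CPM. Mapt, the neuronal tau gene, was lower, with log2 fold changes of -2.07 ± 0.49 and -3.45 ± 0.55. Between tumors Cd44 (2.79 ± 0.32) and Actb (0.995 ± 0.21) were higher in RAS tumors. None was called lower by edgeR; Mapt (-1.38) and Myc (-0.84) were lower at an unadjusted p under 0.05, DESeq2 called Mapt lower, and with library totals edgeR called Myc lower (-0.99). The list medians were 0.63, 0.45 and 0.29. Igf2, the message for which the family is named, had 1 read in all 13 libraries, while H19, its imprinted neighbour, had 0, 25 and 50 reads over the groups and did not pass the filter; both were picked after their values were seen.

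Genes of the m6A mark, which IGF2BPs read, numbered 16 with 11 tested. In PDGFB tumors 4 were higher and 2 lower than in normal brain, and in RAS tumors 3 were higher and 2 lower. The lower pair in both was Zc3h13 and Fto, an eraser of the mark; with library totals neither was called in PDGFB tumors (5 higher, 0 lower). Median-of-ratios scaling lost the writer Mettl3 in PDGFB tumors (3 higher, 2 lower) and the writer subunit Wtap in RAS tumors (2 higher, 2 lower). DESeq2 called 3 higher and 1 lower in PDGFB tumors, without Ythdc1 and Fto, and 2 higher and 2 lower in RAS tumors, without Wtap. Ythdf2, a reader that speeds decay, rose most in PDGFB tumors, from 6.85 ± 2.66 to 70.4 ± 19.1 CPM, and stood at 19.7 ± 10.1 CPM in RAS tumors. It was the only gene on the list called between the tumors, at a log2 fold change of -1.69 ± 0.31; with library totals Zc3h13 was also called (-0.76). Hnrnpa2b1, another reader, rose in both (1.45 ± 0.23 and 1.11 ± 0.23), and the writer subunit Zc3h13 fell in RAS tumors by 1.43 on the log2 scale. Medians were 0.57, 0.67 and -0.27.

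Other RNA-binding proteins of progenitors and neurons (17 genes, 15 tested) split. In PDGFB tumors 3 were higher and 4 lower than in normal brain, and in RAS tumors 1 was higher and 5 lower; library totals added Celf1 to the higher calls in PDGFB tumors and lost Elavl4 from the lower ones in RAS tumors. The neuronal splicing factors Rbfox3 and Rbfox1 fell most, from 60.2 ± 12.1 and 40.4 ± 6.54 CPM in normal brain to 2.90 ± 4.38 and 2.27 ± 0.879 CPM in RAS tumors, and Rbfox3 is itself on the neuron list given above. Between tumors Elavl4 and Qk, a glial RNA-binding gene, were lower in RAS tumors (-1.69 ± 0.59 and -0.95 ± 0.23), and library totals added Celf2 and Ptbp2 to the lower calls (4 in all). None was higher by edgeR, at an unadjusted p under 0.05 or by DESeq2. Medians were 0.02, -0.25 and -0.59.

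Further HMG genes were counted in the same way, where 17.4% of all genes were called higher in RAS than in PDGFB tumors. Of 11 HMG-box and nucleosome-binding genes, 7 were tested. In PDGFB tumors 5 were higher and 1 lower than in normal brain, and in RAS tumors 3 were higher and 1 lower. Between tumors 0 were higher in RAS tumors (0 also at an unadjusted edgeR p under 0.05 and 0 by DESeq2). The 2 lower ones were Hmgn2 (-1.25 ± 0.23) and Hmgb2 (-1.04 ± 0.34). Hmgb2, a marker of dividing cells, stood at 1.75 ± 0.125, 92.1 ± 33.4 and 40.1 ± 21.3 CPM. Medians were 1.25, 0.78 and -0.37.

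Genes that published work places under HMGA2 numbered 9, of which 5 were tested. The list does not state whether HMGA2 raises or lowers each gene, so the calls are not read as HMGA2 activity. Against normal brain 2 were higher in PDGFB tumors and 4 in RAS tumors, and between tumors 4 were higher in RAS tumors (3 by DESeq2). Of these 4, Cdkn2b and the cyclin Ccna2 were no longer called with median-of-ratios scaling or with library totals, and library totals added Ccna2 to the higher calls in PDGFB tumors against normal brain. None was lower by edgeR, at an unadjusted p under 0.05 or by DESeq2 in any of the 3. Cdkn2a, the INK4a and ARF tumor suppressor locus, was at least 14.2-fold higher in PDGFB and at least 25.3-fold higher in RAS tumors, where it stood at 43.9 ± 12.3 CPM. Its neighbour Cdkn2b had 1, 42 and 75 reads over the groups. Twist1, a mesenchymal transcription factor, had 5, 2 and 83 reads, a count ratio of 41.3 between tumors (95% counting interval 11.1 to 347). Medians were 0.36, 3.02 and 0.97, and the 3.02 is the value of Twist1, with 5 reads in normal brain. The fitted value of Cdkn2a, with 0 reads in normal brain, depends on the prior count. The medians were the same with its lower bound in place of that value.

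Of 12 imprinted and fetal growth genes 6 were tested, and 5 of these were lower and 1 higher in both comparisons with normal brain. Among the 6 that did not pass the low-count filter, read sums over normal brain, PDGFB and RAS tumors were 9, 4 and 51 for Dlk1, 6, 11 and 31 for Cdkn1c, 3, 5 and 22 for Gpc3, and 22, 11 and 9 for Grb10; H19 and Igf2 are given above. The calls speak for the 6 tested genes alone. The one higher was Igf2r, the receptor that clears IGF2, with 1, 24 and 154 reads over the groups and a RAS to PDGFB log2 fold change of 2.78 ± 0.35. Ndn, Meg3 and Plagl1 were among those lower. Ndn stood at 50.9 ± 11.6, 7.87 ± 4.63 and 17.5 ± 3.53 CPM, and was 1 of 2 genes higher in RAS than in PDGFB tumors. Mest, opposite Copg2, was lower in RAS tumors (-0.90 ± 0.25). Medians were -1.78, -2.33 and -0.77. Membership of a list does not set these counts apart from the 45.3%, 56.2% and 32.1% of all genes called, since no test over a list was made.

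**Figure D5:**
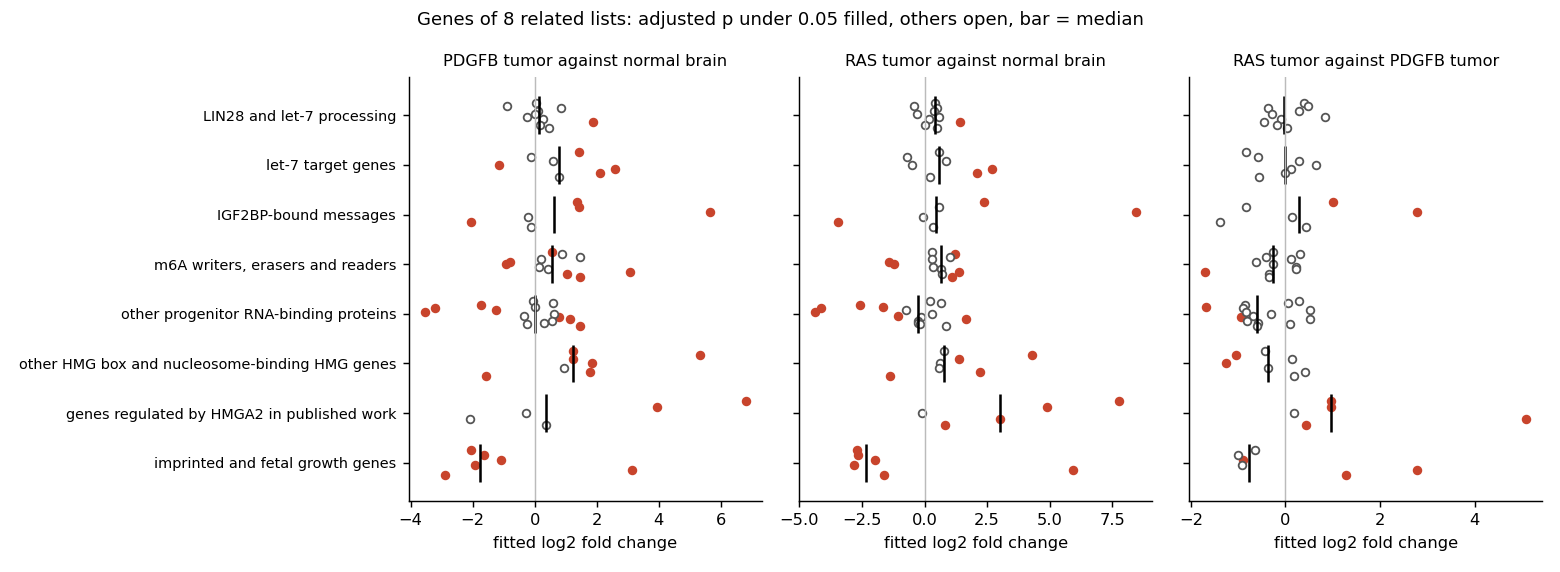
Fitted log2 fold change of each tested gene of 8 related lists (rows) in the 3 comparisons (panels, each with its own horizontal scale); filled points had an edgeR adjusted p under 0.05 and bars are list medians. Genes listed under HMGA2 (5 tested), with no direction of regulation stated, have a median of 3.02 in RAS tumors against normal brain. That median is the value of Twist1 alone, and the median over all genes is 0.02. Medians of imprinted genes against normal brain are -1.78 and -2.33. Points of genes with 0 reads in normal brain depend on the prior count.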

How the data were processed

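The authors deposited raw counts, whole reads per Ensembl gene and library, not normalized, per the file headers. The tools listed in the submitters' processing notes are STAR 2.7.9a and fastp 0.22.0, with the build GRCm38; annotation, counter and strand setting are not given in the sources used here. Aligner summary lines were left out of library totals. GENCODE M21 matched 52135 of 55416 identifiers.

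Genes were fitted with edgeR 4.0.16 (R 4.3.3): filterByExpr (minimum count 10, minimum total 15), TMM factors, 1 coefficient per group over 13 libraries, two-sided quasi-likelihood tests, Benjamini-Hochberg adjustment over 7722 genes, called under 0.05. The script was tested on simulated data. A fold against a group with 0 reads uses 3 reads over that group. No replicate pair agreed within sampling noise (lowest chi-square per degree of freedom 1.69).

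The members and lists were chosen with earlier results of these data known. Named are all members, rows with an exon opposite one, per list and comparison up to 3 called genes with the largest change (otherwise the most abundant), and per Hmga2 row the 5 most alike (mean of at least 10 CPM in 1 group, prior count 2). Alternatives were other factors, no filter, DESeq2 1.42.0, 2 groups alone, a stricter threshold, left-out libraries, summed rows, genes with no exon opposite and a replicate block. Marker sums without genes that have an exon opposite were added after seeing the data.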

Additional observations from a re-analysis of the deposited data

Results flagged for a closer look

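In 22 groups of 5 tumor libraries, 4 values lay far from the rest of their group by Dixon's criterion; chance flags about 1 in 20 groups. Igf2bp3 in RAS tumor 2 stood at 46.0 CPM against 7.78 to 11.1 CPM in the other RAS tumors. Malsu1, opposite Igf2bp3, stood at 125 CPM in PDGFB tumor 2, where the PDGFB median was 19.8 CPM. Gm29202, opposite Igf2bp1, reached 8.21 CPM in RAS tumor 2, which is 5 reads. Gm49774, opposite Hmga1, reached 15.6 CPM in RAS tumor 5, which is 10 reads.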

How the results depend on the processing

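Of 304 member fold changes under other settings, 302 kept direction and side of the threshold and none reversed. PDGFB against normal brain alone gave none for Igf2bp2, which the filter left out there. An adjusted p under 0.01 changed the threshold and not the fit. All settings reuse the same libraries. Hmga2, 1700006J14Rik and Igf2bp2 had 0 reads in normal brain, so against it their direction could not reverse. The tally is therefore a description of rows picked with the comparisons known. The other 2 passed where the main value did not. Both were Igf2bp3 between tumors, at -1.70 without RAS tumor 2 and -1.03 with no low-count filter (all libraries, -0.96). Over all left-out libraries this value ran from -1.70 to -0.80, a description of a row picked with the comparisons known. The 10 member level ratios moved by less than the spread. At an adjusted p under 0.01, RAS against PDGFB tumors called 1465 genes (2476 under 0.05). With genes with no exon opposite alone, 1290, 1704 and 941 genes were called, against 3498, 4340 and 2476; fewer genes were tested there. Leaving out each library gave 2916 to 3710, 3923 to 4470 and 2026 to 3043 calls. Library totals in place of TMM moved the median gene by 0.23, 0.09 and -0.14 and the higher and lower split from 1558 and 1940 to 2045 and 1556 (PDGFB against normal brain) and from 1346 and 1130 to 1075 and 1445 (RAS against PDGFB); no member changed direction. With the replicate number as a block, 1705 genes were called, against 1829 in the 10 tumors alone; 1 of 5 pairs correlated over 0.1 and 1 of 5 best with its own number, so the numbers do not pair the tumors. Libraries of 529162 to 643055 gene counts left Igf2bp1, Igf2bp2 and Lin28b at 0 to 18 reads each, which limits their values.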
